A study of Mus musculus with 12 samples.

Results

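The genes described here encode 10 factors that remove the mRNA cap, degrade the uncapped message or build P-bodies: Dcp2, Dcp1a, Dcp1b, Edc3, Edc4, Patl1, Lsm14a, Lsm14b, Ddx6 and Xrn1. They were taken by gene name and identifier from a table of 20409 protein-coding mouse genes, and all 10 were found. No measured value served as a criterion, but they were chosen with earlier results of these data known. The data are lists of retroviral insertion sites from 3 functional screens in mouse embryonic stem (mES) cells, made with ORFtag, a gene-trap cassette that splices a tag onto the N-terminal side of whatever gene it lands in or near. Each screen has 2 sorted and 2 unsorted libraries, 12 in all.

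All the cells were wild-type diploid mES cells derived from an originally haploid line, and each reporter line was a single clone. For the screen of post-transcriptional gene regulators (PTGR), the clone carried a randomly integrated Puro-IRES-GFP reporter with 10 boxB sites in its message, flanked by loxP, and also expressed CreERT2, a Cre recombinase that acts once 4-hydroxytamoxifen is given. The cassette supplied the boxB-binding λN peptide. Cells low in GFP were sorted and expanded repeatedly, then treated with 4-hydroxytamoxifen to cut out the boxB sites and sorted a last time for GFP expression, so the sequenced PTGR sorted cells were those in which low GFP went with the boxB sites. The unsorted PTGR cells were taken after drug selection, before any sort. In the repressor screen the reporter joined an EF1 promoter with BFP, 7 TetO sites and a PGK promoter driving Puro-IRES-GFP, and cells low in GFP were sorted. The activator screen used 7 TetO sites in front of a MYLPF minimal promoter and Puro-IRES-GFP, and cells that had gained GFP were sorted. Both TetO reporters sat at one locus of stable expression on chromosome 15, and their cassette carried the DNA-binding protein TetR with a nuclear localization signal. Every cassette, in all 3 screens, was driven by a constitutive PGK promoter, carried neomycin resistance and came in versions for the 3 coding frames. An insertion list holds no expression level, so the identity of the cells was not checked against marker genes.

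An mRNA is protected at its start by a cap. Dcp2 is the enzyme that cleaves the cap; Dcp1a and Dcp1b are alternative copies of its activator; Edc3 and Edc4 hold the complex together and raise its activity. Patl1, Lsm14a, Lsm14b and the RNA helicase Ddx6 bind repressed messages, link them to decapping and are core components of P-bodies, the cytoplasmic granules in which decapping factors gather. Xrn1 is the exonuclease that then digests the uncapped RNA from its start. In a tethering assay such as the PTGR screen, a fused protein is brought to the reporter message directly.

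A fusion forms where the cassette's splice donor meets the next splice acceptor of the gene downstream, so the acceptor sequences show which junctions the insertions feed. Each window below runs over 20 intron bases in lower case and the first 10 exon bases in capitals, on the coding strand, from RefSeq assembly GRCm38.p6 (mm10). They are shown because they received most insertions of their gene, or, for Dcp1a exons 5 and 6 and Xrn1 exon 34, because insertions of sorted cells pointed to them.
Dcp1a exon 2, chr14:30482173-30482202: agagttattgtctgttacagGAGAAGACTG
Dcp1a exon 5, chr14:30505526-30505555: agcctgttctcctcctacagTGTGGTAGAA
Dcp1a exon 6, chr14:30512964-30512993: tcttttaattcttttccaagAATCAGATGG
Edc4 exon 2, chr8:105884481-105884510: gcgtccttttctttctctagGTTCCAATGC
Patl1 exon 2, chr19:11914328-11914357: cctttttttttcttttgtagTCTTTGGAGG
Lsm14a exon 2, minus strand, chr7:34375383-34375412: gtcttctcttttcttaccagTTCGATCCTT
Ddx6 exon 2, chr9:44607103-44607132: taattttttctttgtttcagATTGAAGTGA
Xrn1 exon 34, chr9:96035615-96035644: ttctgttttcttgtttctagTTAAGGAAGA
All of these introns end in AG, the signal of a splice acceptor, and all 778 sense insertions listed for the 10 genes pointed to the first base of an exon annotated in GENCODE vM21.

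Across libraries, 14705 to 233799 distinct sense insertions lay within 200 kb of an acceptor and were counted. The sorted libraries were the shallow ones, with 58560 and 60980 insertions for PTGR, 15204 and 22266 for repressors and 14705 and 17397 for activators, against 1022126 over the 6 unsorted libraries that served as background. Some positions recurred between libraries: 18.2% of all positions in PTGR sorted library 1 were also listed in PTGR unsorted library 1, and 10 of its 56 positions at the 10 genes were among them. Repressor sorted library 1 had 18.2% of its positions in common with sorted library 2, and activator sorted library 2 had 19.5% in common with activator unsorted library 2, so these libraries were not wholly separate sets of insertions. Intervals given below cover counting error only.

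The 10 genes differed widely in how often the cassette could be expected to tag them. Ddx6 had 286 background insertions, more than 96.7% of all genes, Dcp2 140, Dcp1a 94 and Lsm14a 73. The scaffolds were thinly covered, with 3 background insertions at Edc3, 5 at Edc4 and 7 at Patl1, against a median of 15 over all genes. Xrn1 had 14, Dcp1b 17 and Lsm14b 23. Per length of gene the order was similar: Ddx6 received 79.8 insertions per 10 kb of annotated gene, Dcp2 31.5, Lsm14b 21.9, Dcp1a 19.8 and Lsm14a 15.0, while Edc3 received 0.682 and Xrn1, whose gene spans 103 kb, 1.36. The median gene received 6.14 per 10 kb.

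Most of those insertions did not lie in the gene. Upstream insertions are counted because the cassette's transcript can splice into the first acceptor it reaches. At Ddx6, 278 of 286 background insertions lay outside the annotated gene, and at Lsm14b all 23 did. At Dcp2 the number was 125 of 140, at Dcp1a 72 of 94 and at Lsm14a 54 of 73. Patl1 and Xrn1 were the other way round, with 6 of 7 and 11 of 14 inside. Insertions inside the gene alone gave another order per 10 kb. Dcp1a had 4.63, Lsm14a 3.90, Dcp2 3.37, Ddx6 2.23, Patl1 1.84, Dcp1b 1.73 and Xrn1 1.07. Edc4 had 0.713, Edc3 0.455 and Lsm14b 0, and the median over all genes was 1.05. Over the 10 genes 13.9% of background insertions were inside, compared with 29.3% over all genes. Ddx6 alone supplied 286 of the 662 insertions behind that pooled share. By gene it ran from 0% at Lsm14b to 85.7% at Patl1.

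**Figure D1:**
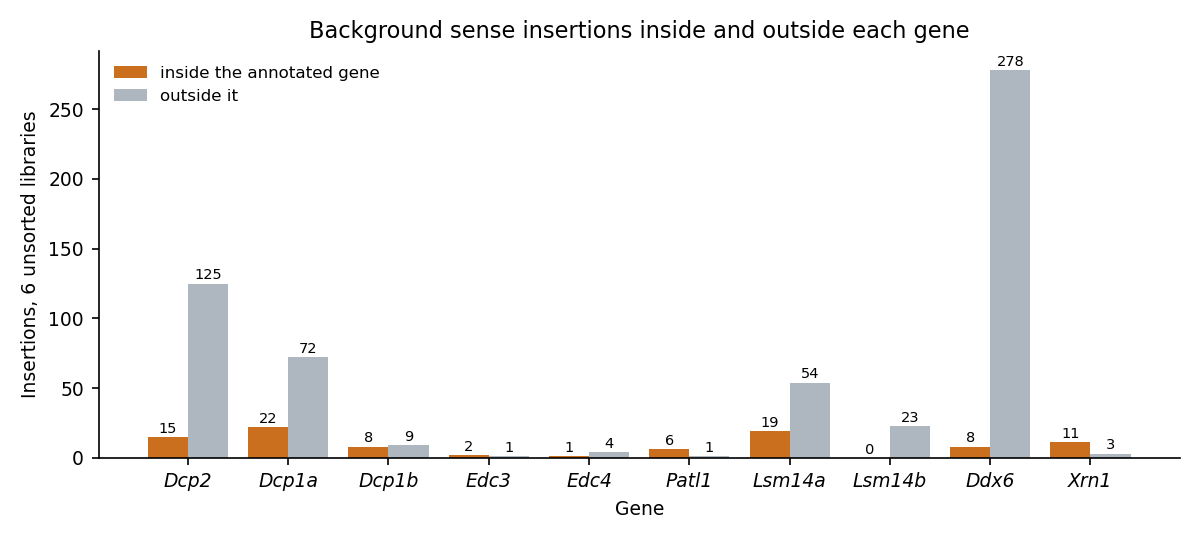
Number of sense insertions in the 6 unsorted libraries (y axis) inside and outside the annotated span of each gene (x axis). Ddx6, Dcp2 and Dcp1a were covered mainly from outside the gene, Patl1 and Xrn1 mainly from inside.

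The acceptor reached decides how much of the protein a fusion can hold. Exon 2 was the target of 311 of 320 insertions at Ddx6, counting all 12 libraries, with no coding base before it, so that the whole protein of 483 residues follows the tag. At Dcp2, 161 of 164 insertions fed exon 2, which leaves out the first 18 of 422 residues. Exon 2 leaves out 65 of 602 residues in Dcp1a, 41 of 462 in Lsm14a, 43 of 385 in Lsm14b and 5 of 770 in Patl1. Edc3 resembled Ddx6, with no coding base before exon 2, but 2 of its 4 insertions fed exon 5, which leaves 46.1% of the protein.

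The first question was whether tethering any of these factors to the reporter message enriched its insertions among the PTGR sorted cells. Insertions of both sorted libraries were summed and compared with the summed background in Fisher's exact test (one-sided), for genes with at least 3 sorted insertions. The call required a Benjamini-Hochberg adjusted p below 0.001 together with a log2 odds ratio no lower than 1. None of the 10 factors was called in the PTGR screen, where 0.666% of 9303 tested genes were. Of the 10, 8 had enough sorted insertions to be tested. The median log2 odds ratio of these 8 was 0.88, beside 0.14 over all tested genes, and 6 of the 8 were above 0, beside 57.5% of all tested genes. Because a gene needs 3 sorted insertions to enter, thinly covered genes such as Edc4 can enter only when they are high, and these summaries describe the genes that passed and not the 10.

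Dcp2, the catalytic subunit, was not enriched. It had 9 insertions in PTGR sorted library 1 and 4 in library 2, that is 1.48 and 0.683 per 10000 insertions of the library, and the 6 unsorted libraries ranged from 0.555 to 2.00 with a median of 1.32. The sorted libraries lay within the range of the unsorted ones. The log2 odds ratio was -0.33 (exact 95% interval -1.28 to 0.49, adjusted p = 1 by Fisher's exact test), and 40 insertions would have been needed for a call. All 13 sorted insertions were upstream of the gene.

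Dcp1a, the activating subunit, stood highest among the well-covered factors. It had 13 insertions in PTGR sorted library 1 and 10 in library 2, or 2.13 and 1.71 per 10000. The unsorted libraries had 0.622 to 1.29 per 10000, with a median of 0.915, so that both sorted libraries were above all 6 unsorted ones. Such a separation was seen at 3 of the 10 factors, Dcp1a included, and at 4.82% of the 18560 genes with an insertion in any library. Among genes with at least 3 sorted insertions it held at 3 of 8 factors and 7.83% of 9303 genes. The other factors among the 3, Edc4 and Patl1, had 0.585 and 0.819 sorted insertions expected. They could enter only by being high in sorted cells, so the count of 3 in 8 is not support for enrichment. Among the 6 unsorted libraries at Dcp1a, those of the PTGR screen were the highest, at 1.198 and 1.294 per 10000. The others had at most 0.969. An excess measured against all 6 is therefore larger than one measured against the PTGR unsorted libraries alone. The summed 23 insertions compare with 10.99 expected from all 6, 2.09 times as many. On that background the log2 odds ratio was 1.07 ± 0.34 (SE, exact 95% interval 0.34 to 1.74). By Fisher's exact test p was 0.00222 and the adjusted p 0.110, so Dcp1a was not called; 31 insertions would have been needed. Its paralog Dcp1b had 2 insertions in library 1 and 0 in library 2, with 1.99 expected, and was not tested.

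**Figure D2:**
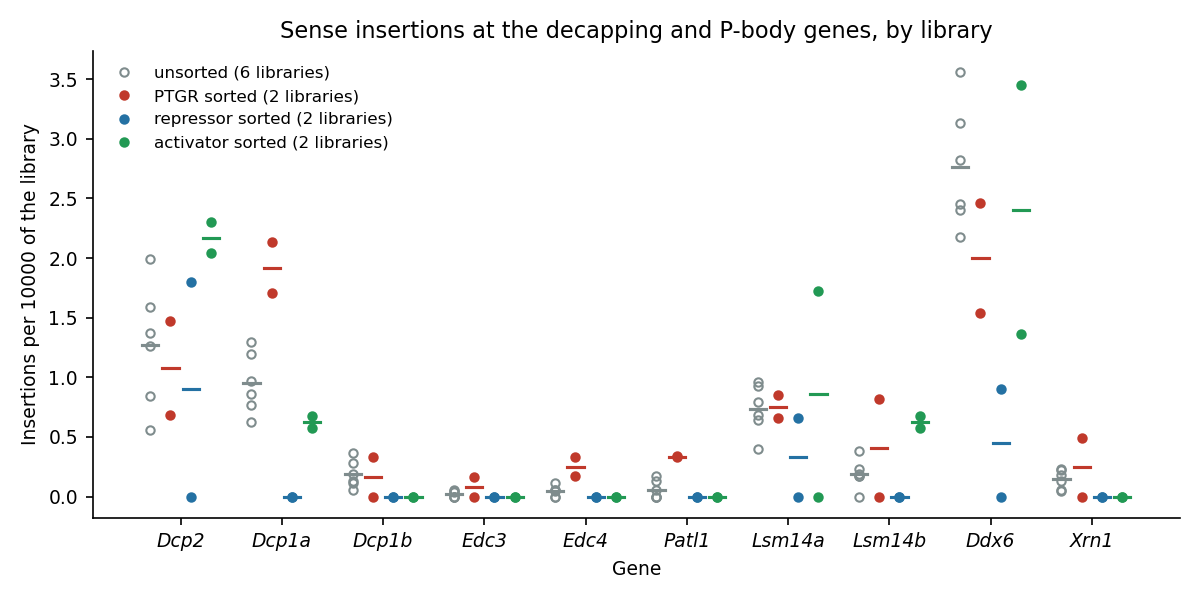
Insertions per 10000 sense insertions of the library (y axis) at each gene (x axis); each point is 1 library and each bar the mean of a group. Dcp1a, Edc4 and Patl1 are the genes at which both PTGR sorted libraries lie above all 6 unsorted libraries, at Edc4 and Patl1 with 1 or 2 insertions in each sorted library.

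The result at Dcp1a turned on which insertions were counted. Of its 94 background insertions, 56 lay 40 to 60 kb upstream of the gene, at 47.3 to 55.6 kb from the exon 2 acceptor, and 51 of those were beyond 50 kb. Of the 23 insertions of PTGR sorted cells, 3 lay there. When the distance limit was set to 50 kb, 19 sorted and 38 background insertions remained, the log2 odds ratio was 2.08 ± 0.41 (exact 95% interval 1.21 to 2.91) and the adjusted p 0.000416 by Fisher's exact test, and Dcp1a was called with 0.838% of 7037 tested genes. No other of the 10 factors was called at that limit.

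**Figure D3:**
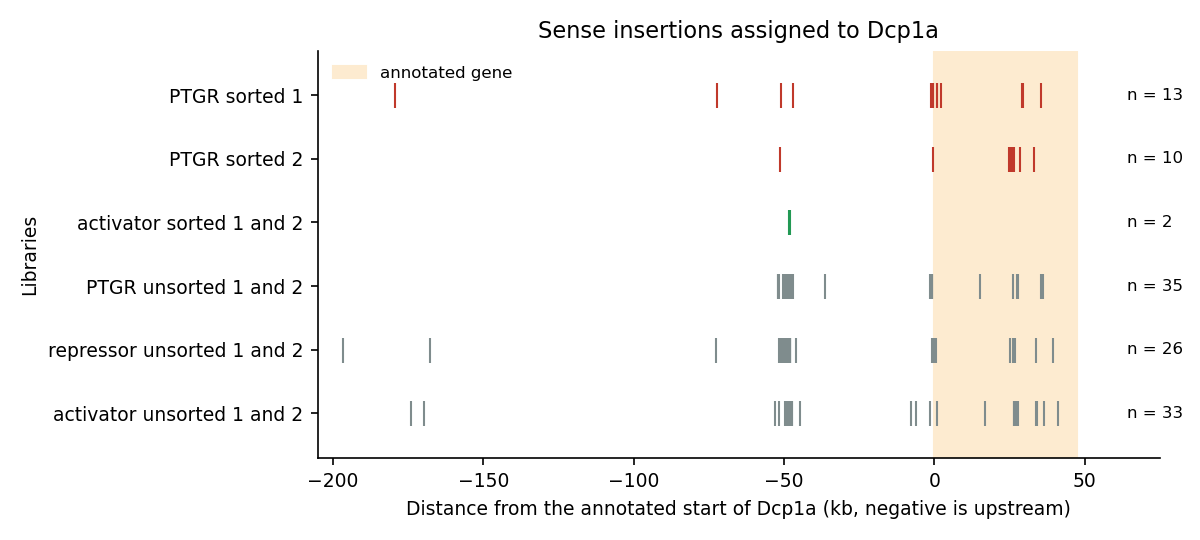
Position of each sense insertion assigned to Dcp1a, as distance in kb from the annotated start of the gene (x axis, negative is upstream), by library or pair of libraries (y axis); each tick is 1 insertion and the shaded area is the annotated gene; sorted repressor libraries held none. Unsorted libraries cluster near 50 kb upstream, sorted PTGR libraries near and inside the gene.

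Counting only insertions inside the annotated gene at Dcp1a, a limit chosen after the positions had been seen, gave a similar value. There were 6 insertions in PTGR sorted library 1 and 8 in library 2, and 3, 3, 3, 3, 5 and 5 in the unsorted libraries of the PTGR, repressor and activator screens. The 14 sorted insertions against 22 gave a log2 odds ratio of 2.44 ± 0.49 (exact 95% interval 1.36 to 3.48, adjusted p = 0.000566 by Fisher's exact test), and 1.4% of 3490 tested genes were called. Outside the gene, where 0.525% of 6668 tested genes were called, 9 sorted and 72 background insertions gave 0.10 (exact 95% interval -1.09 to 1.10). Inside the gene were 60.9% of the sorted insertions (Wilson 95% interval 40.8 to 77.8%) and 23.4% of the background ones (16.0 to 32.9%), while over all genes the shares were 31.2% and 29.3%.

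The call at Dcp1a did not hold with either sorted library alone, nor with the libraries of the screen alone. At 50 kb, the log2 odds ratio was 2.05 without sorted library 1 (adjusted p = 0.0331) and 2.12 without library 2 (adjusted p = 0.0187). With the PTGR unsorted libraries as the only background, 19 insertions against 14 gave 1.71 and an adjusted p of 0.0724 by Fisher's exact test. Inside the gene the adjusted p was 0.00512 without sorted library 1, 0.0595 without library 2 and 0.0175 with the PTGR background, at log2 odds ratios of 2.67, 2.19 and 2.49. When only positions found in 1 library were counted, the call inside the gene was lost, while the call at 50 kb held. Fisher's test on summed counts does not see the spread between libraries. edgeR's quasi-likelihood test does. It compared the sorted PTGR libraries with the unsorted PTGR libraries only, so the background differed as well as the test. edgeR gave log2 fold changes of 0.69 ± 0.45 at 200 kb, 1.75 ± 0.57 at 50 kb and 2.35 ± 0.83 inside the gene, with adjusted p of 0.999, 0.804 and 0.303. At 200 kb edgeR called 0.33% of 8491 genes as higher and none of the 10 factors.

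**Figure D4:**
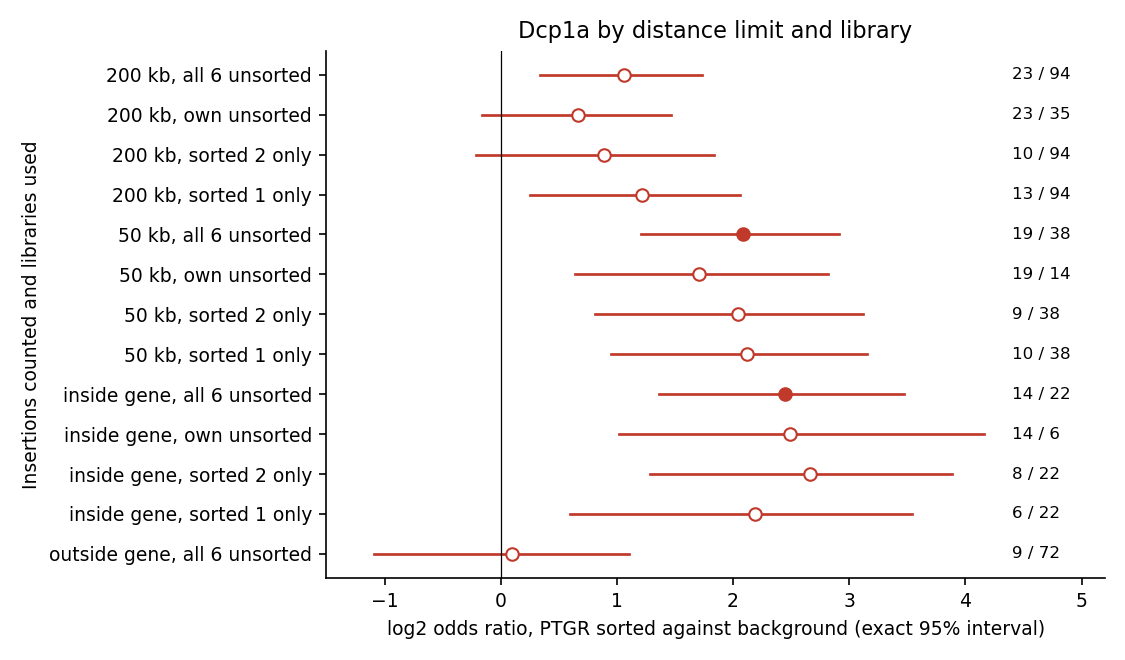
Log2 odds ratio of Dcp1a in PTGR sorted cells with exact 95% intervals (x axis) by the insertions counted and the libraries used (y axis); the numbers are sorted over background insertions, and filled points passed the call. The estimates lie between 1.71 and 2.67 within 50 kb or inside the gene and at 0.10 outside it.

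Both sorted libraries held Dcp1a insertions inside the gene. From there exon 6 was fed in both, while the other acceptors differed. Counting all insertions within 200 kb, in library 1, 10 of 13 fed exon 2, 2 fed exon 6 and 1 fed exon 7. Of those at exon 2, 7 lay outside the gene. In library 2, 2 of 10 fed exon 2, from outside the gene, 3 fed exon 5 and 5 fed exon 6. A fusion at exon 5 leaves 76.1% of Dcp1a, at exon 6 68.4% and at exon 7 62.1%. Dcp1a overlaps Cacna1d, a calcium channel gene on the opposite strand. Insertions turned against Dcp1a were not called at 200 kb, where its sense insertions were not called either. With strands reversed in the assignment, 6 sorted against 47 background insertions gave a log2 odds ratio of 0.14 (adjusted p = 0.910 by Fisher's exact test). That way 0.5% of 9204 tested genes were called, none of the 10 factors among them. Of the 47, 34 lay 40 to 60 kb upstream. Within 50 kb each sorted library held 1 reversed insertion, and inside the gene 1 sorted compared with 4 background. These were too few to test, so reversed insertions could not be judged at the limits where Dcp1a was called.

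The decapping scaffolds had few insertions. Edc4 had 2 in PTGR sorted library 1 and 1 in library 2, against 0, 0, 1, 1, 1 and 2 in the unsorted libraries. Both sorted libraries were above all unsorted ones per 10000 insertions, at 0.328 and 0.171 against a highest value of 0.113, but the count of 0 in PTGR unsorted library 2 allows up to 0.555. The log2 odds ratio was 2.36 (exact 95% interval -0.33 to 4.72, p = 0.0429, adjusted p = 0.428 by Fisher's exact test), so the difference was not detectable at this depth; 9 insertions would have been needed. All 3 sorted insertions were inside the gene, 2 of them before exon 2 and 1 before exon 20, where 37.6% of the protein remains, while 1 of the 5 background insertions was inside. Edc3 had 1 sorted insertion, in library 1, and was not tested.

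Patl1, which bridges Ddx6 and the decapping enzyme, had 2 insertions in each PTGR sorted library, or 0.328 and 0.342 per 10000. In the unsorted libraries it had 3 and 0 (PTGR), 3 and 1 (repressor) and 0 and 0 (activator), at most 0.172 per 10000. The sorted libraries again lay above all unsorted ones as measured, and the 0 in PTGR unsorted library 2 again allows up to 0.555, with a log2 odds ratio of 2.29 (exact 95% interval 0.07 to 4.26, p = 0.0217, adjusted p = 0.340 by Fisher's exact test). Of the 4 insertions, 3 fed exon 2 and 1 fed exon 10.

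Among the other P-body proteins, Lsm14a had an estimate close to background in the PTGR screen, with a wide interval, and Lsm14b could not be placed. Lsm14a had 4 and 5 sorted insertions with 8.54 expected in sum, a log2 odds ratio of 0.08 (exact 95% interval -1.11 to 1.08). That interval just takes in the minimum for a call. Inside Lsm14a there were 4 sorted and 19 background insertions, outside it 5 and 54, and it was called in neither part. Lsm14b had 5 in library 1 and 0 in library 2, where 2.69 were expected in sum, so that a single library held every insertion. Its log2 odds ratio was 0.89 (exact 95% interval -0.86 to 2.32, adjusted p = 0.669 by Fisher's exact test), an interval that takes in both no change and a value above the minimum for a call.

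Ddx6, the most heavily tagged of the 10, had 15 and 9 sorted insertions, or 2.46 and 1.54 per 10000, and the unsorted libraries ranged from 2.18 to 3.56. One sorted library was within that range and the other below it. The log2 odds ratio was -0.48 (exact 95% interval -1.15 to 0.12), an interval that leaves out the minimum of 1 set for a call. That value describes insertions upstream of the gene: inside Ddx6 there were 3 sorted and 8 background insertions, a log2 odds ratio of 1.68 (exact 95% interval -0.87 to 3.74, adjusted p = 0.423 by Fisher's exact test). All 3 fed exon 3, at which 86.1% of the helicase remains.

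Xrn1 had 3 sorted insertions, all in library 1, and a log2 odds ratio of 0.87 (exact 95% interval -1.57 to 2.71, adjusted p = 0.765 by Fisher's exact test). These insertions fed exons 34, 35 and 38, which leave 25.1%, 24.0% and 16.4% of a protein of 1723 residues, while 11 of the 14 background insertions fed exon 2 and 1 fed exon 38. The exonuclease domain lies in the part of the protein that these 3 fusions would lack.

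**Figure D5:**
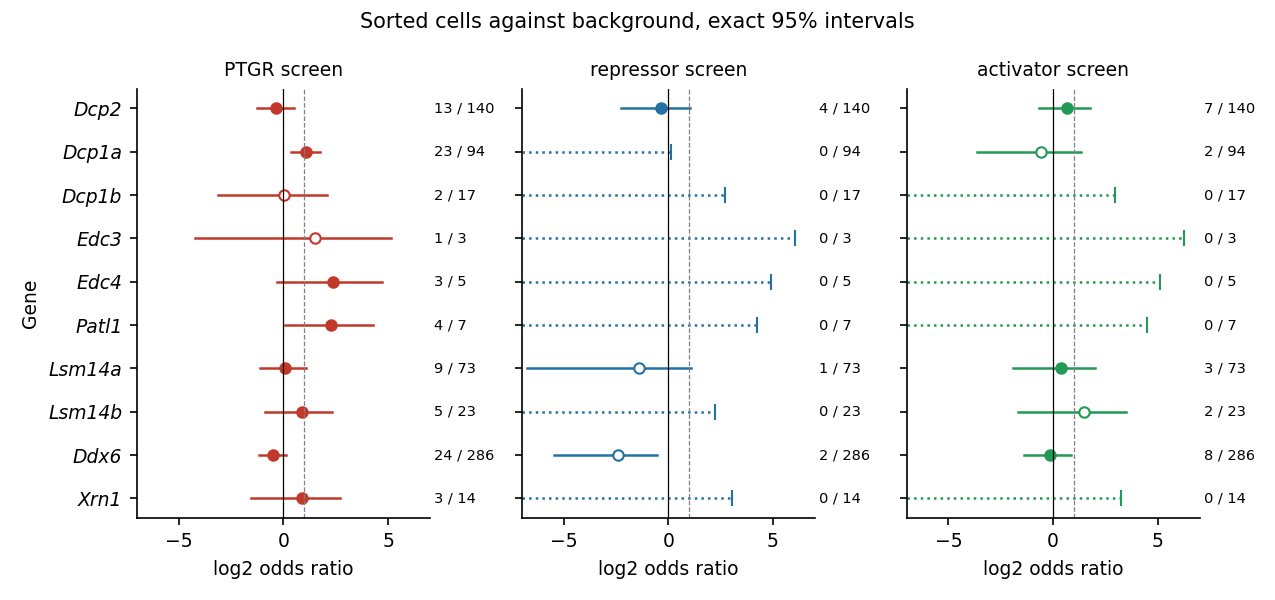
Log2 odds ratio of sorted cells against background with exact 95% intervals (x axes) for each gene (y axis) in the 3 screens; filled points had at least 3 sorted insertions, dotted lines end at the upper limit where there was no sorted insertion, and the numbers are sorted over background insertions. The dashed line marks the minimum for a call, 1, and no gene was called.

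The second question was whether the same factors acted when bound at DNA. In the repressor screen 8.18% of 2346 tested genes were called and none of the 10 factors. Dcp2 alone reached 3 sorted insertions, with 4 in library 1 and 0 in library 2, and its log2 odds ratio was -0.36 (exact 95% interval -2.26 to 1.03). Ddx6 had 2 and 0 insertions where 10.5 were expected, or 0.898 and 0 per 10000, both below all unsorted libraries, with a log2 odds ratio of -2.39 (exact 95% interval -5.44 to -0.52). Both sorted libraries lay below all unsorted ones at 4 of the 10 factors, Ddx6, Dcp1a, Dcp1b and Xrn1. So did those of 28.5% of the 18560 genes with any insertion. At Dcp1b 0.623 and at Xrn1 0.513 sorted insertions were expected, too few for a depletion to be seen there. Dcp1a had 0 insertions of 37470, which allows up to 0.801 per 10000, with 3.45 expected. The 192 called genes took 54.8% of the sorted insertions and 2.95% of the background ones, which lowers the share left for every other gene. With those genes taken out of the totals, the log2 odds ratio of Ddx6 was -1.29 (exact 95% interval -4.34 to 0.58). On the libraries of the repressor screen alone, edgeR gave Ddx6 a log2 fold change of -2.10 ± 0.86 (adjusted p = 0.190). In that fit 1.16% of 7688 genes were lower. Without TMM scaling edgeR gave Ddx6 -2.40 ± 0.82 (adjusted p = 0.049), and 4.21% of genes were lower.

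In the activator screen 4.64% of 2842 tested genes were called, again with none of the 10 factors. Dcp2 had 4 and 3 sorted insertions, or 2.299 and 2.04 per 10000, both above the highest unsorted library at 2.00, and a log2 odds ratio of 0.67 (exact 95% interval -0.67 to 1.75, adjusted p = 0.986 by Fisher's exact test). Both sorted libraries lay above all unsorted ones at 2 of the 10 factors, Dcp2 and Lsm14b. So did those of 2.89% of the 18560 genes with any insertion. With at least 3 sorted insertions it was 1 of 3 factors and 11.6% of 2842 genes. At Lsm14b 1 insertion in a sorted library, 0.575 or 0.680 per 10000, already exceeds the highest unsorted value of 0.385. Its place among the 2 is therefore not support for enrichment. Of the 7 insertions at Dcp2, 6 were upstream of the gene. Ddx6 had 6 and 2, a log2 odds ratio of -0.17 (exact 95% interval -1.39 to 0.83). Lsm14a had 3 and 0 and Lsm14b 1 and 1, Dcp1a 1 and 1, and Dcp1b, Edc3, Edc4, Patl1 and Xrn1 had none. From the full totals 8.98 insertions were expected at Ddx6 and 0.0942 to 0.534 at each of those 5 genes, too few for a depletion to be seen there. The 132 called genes held 34.2% of the sorted insertions.

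Whether enrichment differed between screens was tested in an edgeR fit over the 12 libraries for genes with at least 10 insertions in all. Between the PTGR and the repressor screen 1.38% of 12809 genes differed at an adjusted p below 0.05, and between the PTGR and the activator screen 0.71%. None of the 8 tested factors did, and 1 of the 8 in the first comparison and none in the second had an unadjusted p below 0.05. That factor was Dcp1a, with an adjusted p = 0.325 in edgeR. Its fitted difference rests on 0 insertions in the sorted repressor libraries and is not a bound. Against the activator screen the difference at Dcp1a was 1.39 ± 1.12 on the log2 scale (adjusted p = 0.790 in edgeR). At Ddx6 the differences were 1.94 ± 1.01 (adjusted p = 0.503) and 0.01 ± 0.73 (adjusted p = 1.00).

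The sorted PTGR cells did hold called genes among the partners of these factors. Of 70 genes in 7 lists of related factors, 69 were in the table, 49 were tested and 16 were called in the PTGR screen, beside 0.666% of all tested genes. The lists were chosen with earlier results of these data known, and the paper names several of the called genes as hits of this screen. The count of 16 is therefore a description and not support for enrichment of such lists. In the repressor screen none of 10 tested genes of these lists was called, beside 8.18% of all tested genes, and in the activator screen none of 15, beside 4.64%. In the list of 4E-T and cap-bound repressors, 2 of 4 tested genes were called: Eif4enif1, which encodes 4E-T, the partner that joins the cap-binding protein to Ddx6 and Lsm14 (108 sorted against 186 background insertions, log2 odds ratio 2.31 ± 0.17), and Eif4e2, a repressive cap-binding protein (101 against 371, 1.22 ± 0.16). Among other cap-removing enzymes and cofactors 1 of 6 was called, Pnrc1, which binds Dcp1a (68 against 208, 1.48 ± 0.20, adjusted p = 3.85e-09 by Fisher's exact test). Reversed insertions numbered 40 sorted against 152 background at Eif4enif1, 25 against 242 at Eif4e2 and 21 against 144 at Pnrc1. At Eif4enif1 these, too, were above the share that library depth alone would give. None of the 3 tested genes of the cytoplasmic Sm-like ring, Patl1's partner at the tail of the message, was called, and their median log2 odds ratio was 0.38.

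Calls were also found in lists of factors that act upstream of decapping. As before, 0.666% of all tested genes were called, and the lists had been chosen with earlier results of these data known. Of the microRNA effectors 5 of 6 tested genes were called, Ago1, Ago2, Tnrc6a, Tnrc6b and Tnrc6c, with a median log2 odds ratio of 2.80. Tnrc6b, a scaffold that carries deadenylases to targeted messages, had 102 insertions in one sorted library, 99 in the other and 85 in the background (4.34 ± 0.19). Of the deadenylase list 4 of 14 were called, Cnot2, Cnot3, Cnot9 and Pan3, with a median of 0.78, and Cnot9 had 80 and 26 sorted insertions against 47 (4.27 ± 0.25). Of the nonsense-mediated decay list 4 of 8 were called, Smg1, Smg5, Smg9 and Upf2, with a median of 1.05. The 8 tested genes of the exosome and Ski list, which degrade RNA from the other end, held no call and a median of -0.10. Each of these medians stands beside 0.14 over all tested genes, and no test compared the lists with each other or with the decapping factors.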

How the data were processed

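Insertion sites of 12 libraries were recovered by inverse PCR and sequenced. According to the study's methods, reads were trimmed with Trim Galore 0.6.0, aligned to mm10 with Bowtie2, filtered for duplicates and mapping quality with SAMtools 1.9, and each insertion was given to the nearest downstream splice acceptor of a protein-coding transcript (GENCODE vM25). The insertion lists deposited by the authors give position, strand, exon and distance for the mapped strand and, in a second file, for the reversed strand. The authors also deposited counts per gene pooled over replicates; the columns of the authors' own odds ratios and p-values were not used. The pooled counts equalled the recount at every gene described here except Edc4 (3 here, 4 deposited) and Lsm14a (9 here, 10 deposited) in PTGR sorted cells.

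Distinct positions within 200 kb were counted per gene and library. Lists that repeat positions, such as both unsorted repressor lists, were thereby reduced to 1 count per position. The 2 sorted libraries of a screen were summed and set against the sum of all 6 unsorted libraries. One-sided Fisher's exact tests were run over all genes (scipy 1.17.1), with Benjamini-Hochberg adjustment. These steps follow the study's methods, but in each screen fewer genes were called here than the paper reports. The cause was not tested. edgeR 4.0.16 and DESeq2 1.42.0 (R 4.3.3) were run on the libraries, for genes with at least 10 insertions, called at an adjusted p below 0.05. To compare sorted with unsorted cells they used only the libraries of that screen, and for differences between screens all 12. Gene spans and transcripts were those of GENCODE vM21, with the APPRIS principal transcript giving the residues lost. Sequences were read with samtools 1.23.1. Alternatives changed the distance limit (50 kb), the background, the minimum count, the threshold, the tool, the scaling and the replicate block, and left out each library in turn. Those by gene span, by positions of 1 library, with called genes out of the totals, or joining the 50 kb limit with another choice were added after seeing the data. The scripts were tested on simulated data. PCR reads carry no molecular identifiers, so positions and not reads were counted, and p-values measure the spread or counting error of these libraries only.

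The genes named are the 10 factors, listed genes called in the PTGR screen and neighbours on which a count turns; Zfp248 was chosen after its values were seen. Factors, lists and tests were chosen with earlier results of these data known.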

Additional observations from a re-analysis of the deposited data

Results flagged for a closer look

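Insertions listed for these genes from beyond 200 kb entered no comparison, and at 2 genes the exact 95% interval of their log2 odds ratio in sorted cells lay above 0. Dcp1b was the reversed-strand target of 74 such insertions in repressor sorted cells, 42 and 32 in the 2 libraries, where 3.43 were expected from 112 in the background. Of these, 72 lay inside Zfp248, a zinc finger gene on the minus strand about 740 kb away, and all 72 were the same positions that were counted in sense for Zfp248, which was itself called in the repressor screen (72 against 32, log2 odds ratio 5.94, adjusted p = 2.44e-77 by Fisher's exact test). The same insertions thus stand under both gene names. Dcp1a had 5 sense insertions beyond 200 kb in PTGR sorted cells, 4 in library 1 and 1 in library 2, where 1.05 were expected from 9 in the background. At Lsm14a, 15 sense insertions beyond 200 kb in PTGR sorted cells compared with 8.19 expected, and the interval took in 0 (log2 odds ratio 0.87, -0.04 to 1.69). The cause was not tested.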

How the results depend on the processing

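Depth limited the thinly covered genes most. At the 200 kb limit no factor was called as enriched under any alternative run. In the PTGR screen Dcp1a alone was called at 50 kb, inside the gene, and at 50 kb with positions of 1 library only. The last 2 of these settings were chosen after seeing the data. Inside the gene with positions of 1 library only, no factor was called. In the repressor screen 1 factor was lower with edgeR without TMM (Ddx6). The cause was not tested. Over all genes, the 62 PTGR calls became 40 with the background of the same screen and 76 with every listed row counted. They became 130 at an adjusted p below 0.05 with no minimum odds ratio and 35 outside the gene. On the PTGR libraries alone they became 28 with edgeR, 30 without TMM and 29 with DESeq2. Outside the gene, 192 repressor calls became 107 and 132 activator calls 63. Reversed insertions gave 46 PTGR calls, 29 with the same screen's background and 17 inside the gene, 125 repressor calls, 72 at 50 kb and 18 inside, and 85 activator calls, 19 inside. Differences between screens inside the gene numbered 68 against the repressor (177 before) and 55 against the activator screen (91 before), and leaving out 1 library gave 108 to 190 and 49 to 95, lowest without PTGR unsorted library 1; without repressor sorted library 1 the first was 113. Signs turned as follows. Dcp2 in the PTGR screen (-0.33) was 0.21 with the replicate block, 0.15 with DESeq2 and -1.004 to 0.11 leaving out 1 library; Lsm14a (0.08) was -0.12 to 0.26; Ddx6 (-0.48) was 1.68 inside the gene. Dcp2 in the repressor screen (-0.36) was 0.0191 with its own background, 0.86 inside the gene, 0.26 with positions of 1 library, 0.74 with called genes left out of the totals, 0.32 with edgeR, 0.27 with the replicate block, 0.0163 without TMM, 0.44 with DESeq2 and -0.47 to 0.39 leaving out 1 library. Ddx6 in the activator screen (-0.17) was 1.99 inside the gene, 0.42 with called genes left out, 0.0624 with DESeq2 and -1.04 to 0.30 leaving out 1 library. The labels do not say that a replicate number marks a pair, and correlations of same-numbered deviations were 0.207, -0.000664 and 0.0481 in the PTGR, repressor and activator screens. Shared positions followed the number in the PTGR screen (18.2% and 6.76% with the same-numbered unsorted library, 0.342% and 1.79% with the other) and in the activator screen (4.96% and 19.5% against 2.25% and 1.46%), but not for repressor sorted library 1 (8.17% against 9.86%). With the replicate block edgeR called 44, 178 and 100 genes and none of the 10 factors, 28 becoming 44 in the PTGR screen, and 136 and 83 differences between screens. Dcp1a then had log2 fold changes of 0.74 at 200 kb, 1.75 at 50 kb and 2.15 inside the gene (adjusted p = 0.972, 0.217 and 0.420).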
